A study of Mus musculus with 4 samples.

Results

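The genes described here are 9 transcription factor genes of embryonic mesenchyme: the homeobox pairs Meox1 and Meox2 and Prrx1 and Prrx2, the zinc finger pair Osr1 and Osr2, the basic helix-loop-helix (bHLH) pair Twist1 and Twist2, and the bHLH gene Tcf21. They were selected on the FPKM of Meox1, which was high in both cultures with low Dyrk2, and the other members were added as its paralog and as families of like function. The ratios of Meox1 in those comparisons are therefore a description and support nothing. All 9 were found among the 55573 gene identifiers of the deposited tables. Of these, 8 reached 1 FPKM (fragments for each kilobase of exonic length, scaled to 1e+06 fragments assigned to genes) in at least 1 library, as did 12817 genes in all, which are called measured below. Tcf21 did not.

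The data were 4 RNA sequencing libraries of primary mouse embryonic fibroblasts, 1 per group, from a study of the kinase DYRK2 in Hedgehog signalling. All 4 cultures had been kept for 24 h with 100 nM SAG, an agonist of Smoothened that turns the Hedgehog pathway on. The groups were wild-type cells, Dyrk2 knockout cells (Dyrk2-/-), wild-type cells given the negative-control siRNA siNeg, and wild-type cells given an siRNA against Dyrk2 (siDyrk2). The labels give neither the age or number of the embryos nor the design of the knockout allele or siRNA. Untreated cultures were not analysed here.

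Meox1 and Meox2 act in somites, where the vertebrae, ribs and part of the muscle arise, and Meox1 has also been linked to the activated state of fibroblasts. Osr1 and Osr2 act in intermediate mesoderm, limb and palate, and Osr1 is known as a gene that can respond to Hedgehog signalling. Prrx1 and Prrx2 mark limb and craniofacial mesenchyme, Twist1 and Twist2 keep mesenchymal cells from differentiating early, and Tcf21 marks epicardial and visceral fibroblast precursors. Hedgehog ligands pattern several of these tissues through the GLI transcription factors.

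Members of the Twist, Prrx and Osr pairs share much of the sequence that encodes their DNA-binding part. The coding sequences of Twist1 and Twist2 were 84.2% identical over 480 aligned bases, those of Prrx1 and Prrx2 71.8% and of Osr1 and Osr2 71.5%. The longest identical run within the coding sequences was 23 bases for Twist, 23 for Osr and 19 for Prrx. The windows of 90 bases in which the members of a pair were most alike are printed for Twist and Osr, whose balance varied between libraries, to show how far fragments of a pair can be told apart. Sequences are from GENCODE M21 on GRCm38, 5′ to 3′ on the coding strand, and capitals mark the bases that differ within the pair. The Twist windows lie in exon 1 of 2 of each gene, at chr12:33958324-33958413 (plus strand) for Twist1 and chr1:91801835-91801924 (plus) for Twist2, and differ at 8 bases.
Twist1: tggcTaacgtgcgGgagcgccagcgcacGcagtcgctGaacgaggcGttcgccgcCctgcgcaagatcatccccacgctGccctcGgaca
Twist2: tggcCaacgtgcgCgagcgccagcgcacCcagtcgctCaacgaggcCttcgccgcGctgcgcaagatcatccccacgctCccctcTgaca
The Osr windows differ at 10 bases and join exons 2 and 3 of Osr1 (chr12:9579765-9580550, plus) and exons 1 and 2 of Osr2 (chr15:35300927-35301972, plus) in the transcripts with the longest coding sequence.
Osr1: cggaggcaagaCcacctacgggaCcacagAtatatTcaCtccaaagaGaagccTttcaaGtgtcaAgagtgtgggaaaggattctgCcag
Osr2: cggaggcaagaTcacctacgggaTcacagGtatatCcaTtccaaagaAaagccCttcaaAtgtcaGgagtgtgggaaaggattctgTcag

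Estimated depth was between 19.98 and 23.93 in units of 1e+06 fragments per library. Dyrk2 was low where the labels say so, at 6.59 FPKM in wild type, 0.57 in the knockout, 7.06 with siNeg and 0.81 with siDyrk2. Gli1, the main transcriptional readout of the pathway, was at 28.81, 0.24, 30.17 and 2.25 FPKM in the same order, and Ptch1, the Hedgehog receptor and a target of the pathway, at 16.32, 1.23, 16.03 and 1.95. The Y-linked gene Ddx3y was at 8.28 FPKM in the knockout and at most 0.02 in the others, which sets the knockout library apart. The X-linked gene Xist was at 37.05 FPKM in wild type, 26.37 in the knockout, 32.33 with siNeg and 27.48 with siDyrk2. The sex of the cells thus differed, at least in part, between the knockout and the other libraries. All 8 fibroblast markers were measured. They summed to 7055 FPKM in wild type, 7765 in the knockout, 6912 with siNeg and 5311 with siDyrk2. Of the 8, 6 were higher in the knockout than in wild type, 2 with siDyrk2 than with siNeg, and 3 with siNeg than in wild type. The median log2 ratios were 0.10, -0.36 and -0.01. Macrophage markers summed to 223 FPKM in wild type, 456 in the knockout, 254 with siNeg and 314 with siDyrk2. All 7 measured of 8 listed were higher in the knockout than in wild type, with siDyrk2 than with siNeg, and with siNeg than in wild type, with median log2 ratios of 0.84, 0.23 and 0.44. The 5 neuronal markers, of which Elavl3 was at 0 throughout and 2 were measured, summed to 8.50, 5.68, 9.99 and 19.86 FPKM in the order of the libraries above. Most of each sum was the tubulin gene Tubb3, at 7.81, 4.67, 8.95 and 18.57 FPKM. The other measured one, Stmn2, was at 0.66, 0.88, 0.97 and 1.19 FPKM. Of the muscle markers Myf5 and Pax7 were at 0 in all 4 libraries, and the 7 listed summed to at most 1.97 FPKM. The part of these differences in the members' values was not tested, and in bulk RNA more cells of a type and more RNA per cell cannot be told apart.

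With 1 library per group there is no replicate check and no test. Ratios written as fold are ratios of deposited FPKM, with a 95% counting interval (exact conditional binomial, on fragments estimated from FPKM, length and depth) that covers counting error only. That interval does not cover differences between cultures. Between siNeg and wild type, which differ in the siRNA and in culture, it excluded 1 for 22.9% of measured genes on the higher side and 23.6% on the lower side. The shares of culture and siRNA in this cannot be told apart. Log2 ratios are of FPKM + 1, which understates differences of low genes, and a gene counts as at least 2-fold different at a log2 ratio of at least 1 in size.

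Meox1 was the member with the widest range. The gene (ENSMUSG00000001493, chromosome 11, 101877510 to 101894374 on GRCm38, minus strand) encodes a homeodomain protein of the early somite. Its level was 7.45 FPKM in wild type, 14.34 in the knockout, 8.40 with siNeg and 27.45 with siDyrk2, from 397, 699, 374 and 1313 fragments. Both libraries with low Dyrk2 were thus above both with intact Dyrk2. The knockout was 1.92-fold above wild type (1.70 to 2.18), and siDyrk2 was 3.27-fold above siNeg (2.91 to 3.67). The log2 ratios were 0.86 and 1.60, which placed Meox1 115th and 11th from the highest of the 12817 measured genes. The controls differed by 1.13-fold, with an interval of 0.977 to 1.30 that includes 1, and siDyrk2 was 1.91-fold above the knockout (1.74 to 2.10).

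Meox2, its paralog in somites and limb muscle, did not follow Meox1 in the siRNA comparison. The gene lies on chromosome 12 at 37108540 to 37179534 (plus strand). It was at 4.30 FPKM in wild type, 7.96 in the knockout, 5.90 with siNeg and 4.89 with siDyrk2. The knockout was the highest library, 1.85-fold above wild type (1.57 to 2.18), while siDyrk2 lay between the controls. Against siNeg it was 1.21-fold lower (1.01 to 1.44), and against wild type 1.14-fold higher, with an interval of 0.949 to 1.36. The controls themselves differed by 1.37-fold (1.15 to 1.63), the widest gap between controls of any measured member. Measured against siNeg, the knockout was 1.35-fold higher (1.16 to 1.58).

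**Figure D1:**
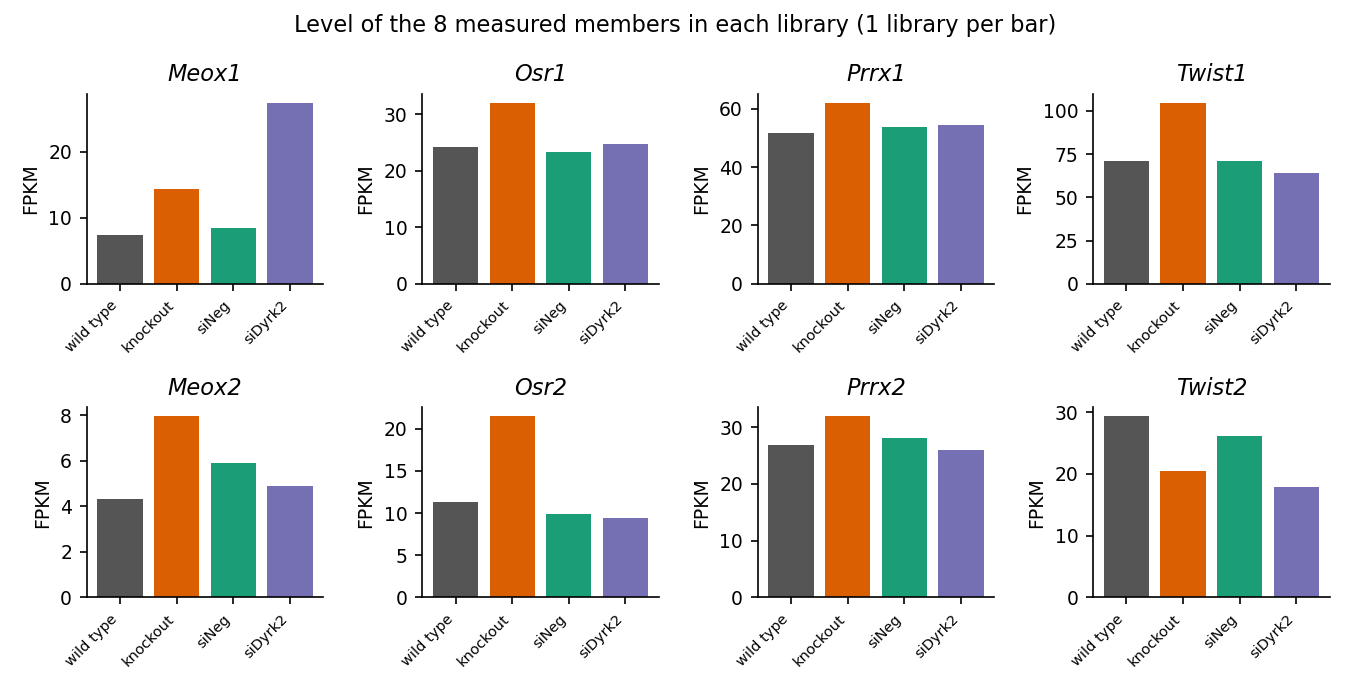
Level of each of the 8 measured members in FPKM (vertical axis, from 0, its own scale per panel) in each of the 4 libraries (1 bar per library, no error bars since each group holds 1 library). Meox1 is highest with siDyrk2 at 27.45 FPKM, the knockout is the highest library for 6 members, and Twist2 is lowest in both libraries with low Dyrk2.

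Osr2 was high in the knockout alone. This gene (chromosome 15, 35296098 to 35303305, plus strand) encodes a zinc finger factor of palate and joint mesenchyme. It stood at 11.32 FPKM in wild type, 21.50 in the knockout, 9.89 with siNeg and 9.37 with siDyrk2. The knockout was 1.90-fold above wild type (1.76 to 2.06), the 114th highest ratio of measured genes at a log2 of 0.87. The level with siDyrk2 was 0.947 of that with siNeg (0.853 to 1.05). Against siNeg the knockout was 2.17-fold higher (1.99 to 2.38), with a log2 ratio of 1.05, so that it passed the 2-fold rule against that control and missed it against wild type.

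Osr1, its paralog in intermediate mesoderm and limb (chromosome 12, 9570116 to 9581500, plus strand), varied less. Its values were 24.26 FPKM in wild type, 32.02 in the knockout, 23.26 with siNeg and 24.73 with siDyrk2. The knockout was again the highest library, 1.32-fold above wild type (1.22 to 1.43). The other 3 libraries were within counting error of their neighbours in order. The siDyrk2 library was 1.06-fold above siNeg, with an interval of 0.974 to 1.16.

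The Prrx genes were the steadiest members. Prrx1 (chromosome 1, 163245119 to 163313710, minus strand), a marker of limb bud and fibroblast progenitors, was at 51.57 FPKM in wild type, 62.10 in the knockout, 53.74 with siNeg and 54.49 with siDyrk2. Prrx2 (chromosome 2, 30834972 to 30881251, plus strand) was at 26.88, 31.96, 28.18 and 25.93 FPKM in the same order. Both were highest in the knockout, Prrx1 by 1.20-fold (1.18 to 1.23) and Prrx2 by 1.19-fold (1.10 to 1.28) over wild type. With siDyrk2 Prrx1 was 1.01-fold above siNeg (0.989 to 1.04) and Prrx2 at 0.920 of it (0.846 to 1.002). For Prrx1, with at least 11882 fragments per library, even the 1.04-fold gap between the controls had an interval that excludes 1 (1.02 to 1.07).

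Twist1 and Twist2 went apart in the knockout. Twist1 (chromosome 12, 33957671 to 33959829, plus strand), needed for cranial and limb mesenchyme, had the highest FPKM of the members in every library. It was at 71.22 FPKM in wild type, 104.77 in the knockout, 70.80 with siNeg and 63.88 with siDyrk2. The controls were nearly equal (0.994-fold, 0.940 to 1.05), the knockout was 1.47-fold above wild type (1.40 to 1.55), and siDyrk2 was 1.11-fold below siNeg (1.05 to 1.18).

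Twist2 (chromosome 1, 91801461 to 91848028, plus strand), known from dermis and bone precursors, was the member that was lower in both comparisons. It was at 29.35 FPKM in wild type, 20.45 in the knockout, 26.10 with siNeg and 17.84 with siDyrk2. Both libraries with low Dyrk2 lay below both controls. The level in the knockout was 0.697 of wild type (0.652 to 0.745) and with siDyrk2 0.684 of siNeg (0.634 to 0.737), with log2 ratios of -0.50 and -0.52. The step between the controls was smaller, at 0.889 (0.834 to 0.948). Of all measured genes, 5.28% had a lower ratio in the knockout comparison and 3.56% in the siRNA comparison. An antisense gene, Gm29100, overlaps Twist2 and was at 0.43 to 0.52 FPKM. Neither the labels nor the file headers say whether the authors' counting used strand.

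The stretches before the start of each Twist gene are shown because the pair went apart in the knockout. They are the 250 bases upstream of the RefSeq start on GRCm38.p6, at chr12:33957421-33957670 for Twist1 and chr1:91801211-91801460 for Twist2, both on the plus strand. Capitals mark motifs found.
Twist1: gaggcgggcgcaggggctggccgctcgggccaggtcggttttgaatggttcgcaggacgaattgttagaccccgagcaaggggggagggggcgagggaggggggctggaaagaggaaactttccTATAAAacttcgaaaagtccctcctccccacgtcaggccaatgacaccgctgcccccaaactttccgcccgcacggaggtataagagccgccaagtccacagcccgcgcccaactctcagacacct
Twist2: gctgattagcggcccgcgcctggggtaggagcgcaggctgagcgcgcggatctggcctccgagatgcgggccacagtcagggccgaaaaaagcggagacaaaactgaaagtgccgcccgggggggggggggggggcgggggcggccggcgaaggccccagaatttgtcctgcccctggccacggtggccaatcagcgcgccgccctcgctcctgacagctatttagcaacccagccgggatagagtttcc
The motifs searched on both strands were the GLI site GACCACCCA, the E-box CANNTG and its form CATATG that bHLH factors bind, the homeodomain core TAATTA and the TATA-box sequence TATAAA. Twist1 held TATAAA near the middle of the window, not next to the start. Of 32851 promoters of this length 12.4% hold TATAAA at any position, and Twist2 held none of these motifs. GC content was 62.4% for Twist1 and 68.8% for Twist2, against a median of 52.4%, and the observed to expected ratio of CpG was 0.740 and 0.788 against a median of 0.373. Promoters of 6 of the 9 members were matched in the RefSeq table, and those of Meox1, Osr1 and Osr2 were not. None of the 6 held the GLI site, which 0.225% of promoters hold, and 1, that of Meox2, held an E-box, against 66.2% of promoters. A match or its absence in this window says nothing of binding.

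Tcf21 (chromosome 10, 22817281 to 22820174, minus strand) was barely detected, with 2 fragments in wild type, 5 in the knockout, 0 with siNeg and 6 with siDyrk2. Its values were 0.04, 0.10, 0.00 and 0.12 FPKM, where 3 fragments correspond to 0.0534 to 0.0639 FPKM. The counting interval excluded 1 for siDyrk2 against siNeg (6 against 0 fragments), where it starts at 1.10 with no upper end. It included 1 for the knockout against wild type (0.448 to 28.7) and between the controls.

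The members kept much of their order by FPKM across libraries. FPKM divides by the exonic length listed per gene, which can exceed that of a transcript. For Prrx1 it was 11066 bases, against 4952 in the transcript with the longest coding sequence. For Twist2 it was 3174 against 1329 and for Osr2 3623 against 1324, while for Meox1 and Twist1 both lengths were equal. The order of genes within a library thus depends on the length used, while the ratio of a gene between libraries does not. Twist1 was first and Prrx1 second in all 4, followed in wild type by Twist2 (29.35 FPKM), Prrx2, Osr1, Osr2, Meox1 and Meox2. The gap between Prrx2 and Twist2 was within counting error with siNeg. In the knockout Twist2 came at place 6, within counting error of Osr2 above it, and Prrx2 and Osr1 were at 31.96 and 32.02 FPKM. With siDyrk2 Meox1 was at place 3, within counting error of Prrx2 below it, and in the other libraries at place 7. Among all genes of the tables Meox1 ranked 5935th by FPKM in wild type, 3458th in the knockout, 5419th with siNeg and 1837th with siDyrk2.

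The balance within a pair, read between libraries since its size depends on the gene lengths used, showed where the paralogs parted. The ratio of Meox1 to Meox2 was 1.73 in wild type, 1.80 in the knockout, 1.42 with siNeg and 5.61 (4.89 to 6.45) with siDyrk2, so only siDyrk2 stood apart. Twist1 to Twist2 was 2.43 and 2.71 in the controls wild type and siNeg, 3.58 (3.34 to 3.84) with siDyrk2 and 5.12 (4.82 to 5.45) in the knockout, higher in both libraries with low Dyrk2. Osr1 to Osr2 was 2.14, 1.49 (1.39 to 1.60), 2.35 and 2.64 in wild type, knockout, siNeg and siDyrk2, with the knockout lowest. Prrx1 to Prrx2 stayed within 1.91 to 2.10. The summed level of a pair was highest in the knockout for Osr (53.52 FPKM), Prrx (94.06) and Twist (125.22), and with siDyrk2 for Meox (32.34).

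**Figure D2:**
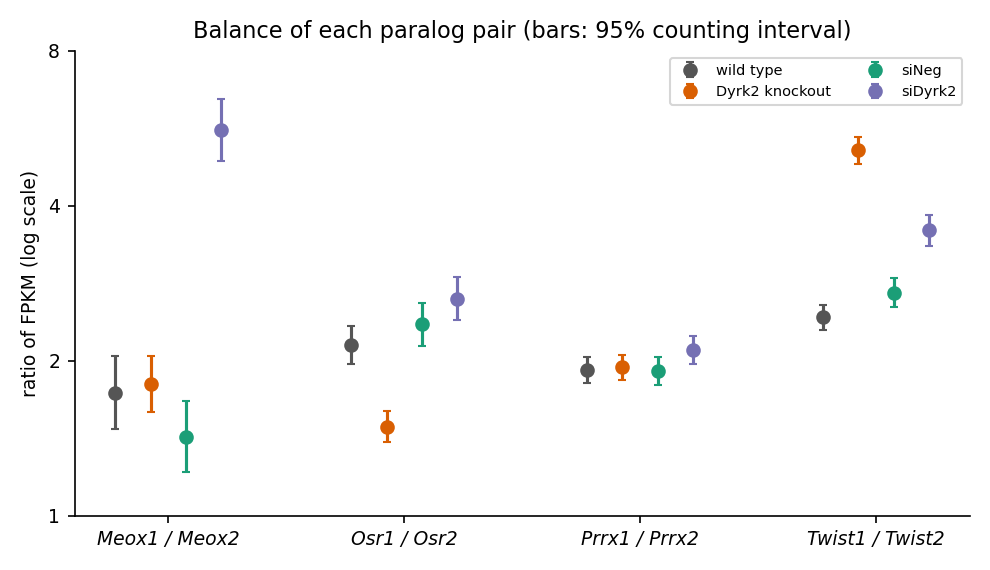
Ratio of FPKM within each paralog pair (vertical axis, log scale) in each library, with bars for the 95% counting interval. Meox1 to Meox2 is 5.61 with siDyrk2 and at most 1.80 elsewhere, and Twist1 to Twist2 is higher in both libraries with low Dyrk2 than in both controls.

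Counted over the 8 measured members, the knockout comparison asked how lasting loss of Dyrk2 differs from wild type. Of the 8, 7 were higher and Twist2 was lower, each with a counting interval that excludes 1, with a median log2 ratio of 0.47 and a range of -0.50 to 0.87. Over all measured genes 43.7% were higher and 55.6% lower, the median was -0.02, and the counting interval excluded 1 on the higher side for 19.1% and on the lower side for 26.2%. At least 2-fold different were 0 of 8 members, where 0.57% of measured genes were so on the higher side and 1.21% on the lower. Since the choice of members used this contrast, nothing is read from these counts. The Ddx3y and macrophage marker levels given above set this library apart in the same comparison, and their part was not tested.

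The siRNA comparison asked what short-term lowering did within wild-type cells. Here 3 members were higher and 5 lower, with a median log2 ratio of -0.09 against 0.02 for all measured genes, of which 54.3% were higher and 45% lower. The counting interval excluded 1 for Meox1 on the higher side, where it did for 28.3% of measured genes, and for Meox2, Twist1 and Twist2 on the lower side, where it did for 23.1%. Meox1 alone was at least 2-fold different, as 0.749% of measured genes were on the higher side and 0.796% on the lower. The gene was chosen for this. The macrophage marker sum and Tubb3, which made up most of the neuronal sum, were also higher with siDyrk2 than with siNeg, and their part was not tested.

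In the comparison of siNeg with wild type 4 members were higher and 4 lower, where 48.3% of measured genes were higher and 51% lower. The counting interval excluded 1 for 2 members on the higher side (Meox2 and Prrx1), where it did for 22.9% of measured genes. It did so for 2 on the lower side (Osr2 and Twist2), against 23.6%. The median log2 ratio was 0.02, against -0.01 for all measured genes, and the range ran from -0.18 (Osr2) to 0.38 (Meox2). None of the 8 was at least 2-fold different, where 0.367% of measured genes were so on the higher side and 0.562% on the lower. This comparison shares the wild-type library with the knockout comparison.

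**Figure D3:**
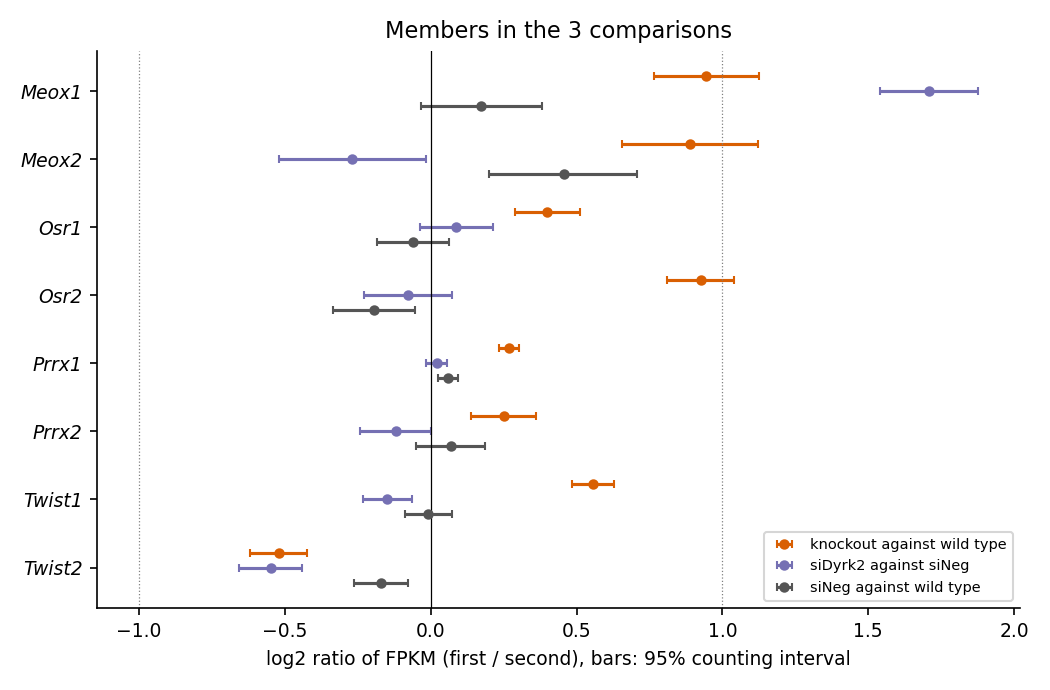
Log2 ratio of FPKM (horizontal axis, no pseudocount) of the 8 measured members in the knockout, siRNA and control comparisons, with bars for the 95% counting interval and dotted lines at 2-fold. Meox1 is to the right and Twist2 to the left of 0 for both ways of lowering Dyrk2, while Meox2, Osr2, Prrx2 and Twist1 lie on opposite sides.

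Set side by side, the knockout and siRNA ratios had the same sign for 4 members and opposite signs for 4. Opposite signs were found for 42.2% of measured genes. Meox1, Osr1 and Prrx1 were higher in both, as were 27.6% of measured genes, and Twist2 was lower in both, as were 28.9%. For Prrx1 the siRNA ratio of 0.02 turned negative under trimmed-mean and median-of-ratios scaling. The difference between the ratios was largest for Meox2 (0.76 against -0.23) and Osr2 (0.87 against -0.07), and it was not tested.

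**Figure D4:**
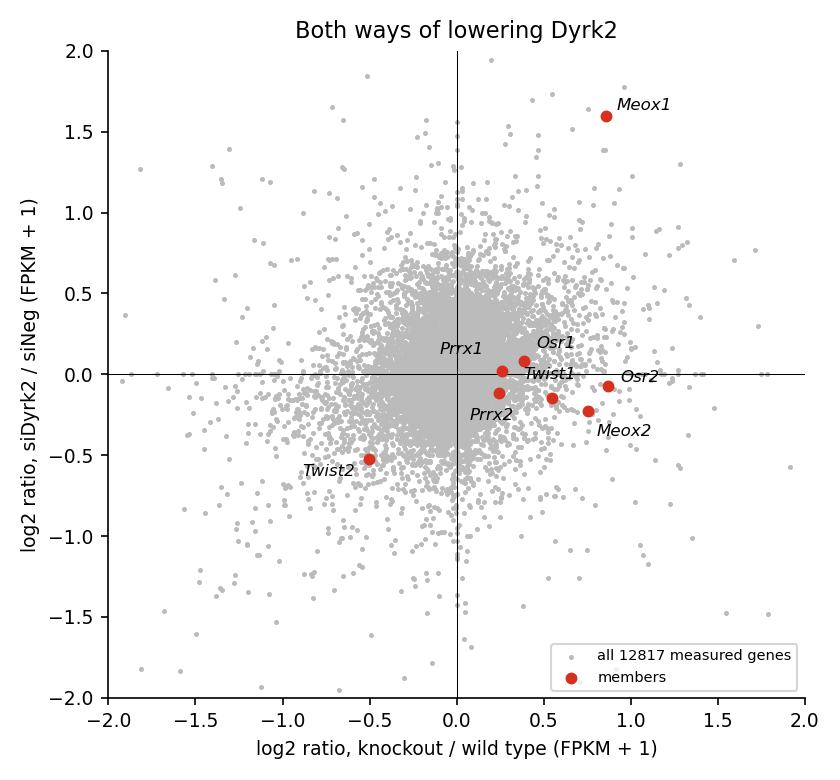
Log2 ratio of FPKM + 1 in the knockout comparison (horizontal axis) against the siRNA comparison (vertical axis) for the 12817 measured genes (grey, 18 outside the plotted range) and the 8 measured members (red). Meox1 lies at 0.86 and 1.60, Twist2 at -0.50 and -0.52, and the other 6 lie to the right of 0 and between -0.23 and 0.08 on the vertical axis.

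The genes whose profile over the 4 libraries was most like that of Meox1 were Rgs4, F3, Chchd10, Isg15 and Ifit1. They had the smallest Euclidean distances over the 3 log2 ratios to wild type among 7386 other protein-coding genes with at least 5 FPKM in a library. Rgs4, a regulator of G-protein signalling, was at a distance of 0.464 and had 1.79 FPKM in wild type, 2.77 in the knockout, 1.76 with siNeg and 7.95 with siDyrk2. F3, which encodes tissue factor, was at 0.492, with 26.12, 50.78, 28.50 and 64.23 FPKM. Chchd10, a mitochondrial protein gene, and the interferon-induced genes Isg15 and Ifit1 followed at 0.616, 0.667 and 0.682. In the same order of libraries, Chchd10 was at 2.97, 7.78, 5.28 and 10.62 FPKM. Isg15 was at 7.02, 11.84, 12.67 and 22.79 FPKM, and Ifit1 at 2.49, 7.42, 3.37 and 7.21. Isg15 was thus lower in the knockout than with siNeg, unlike Meox1, and the controls of Chchd10 and Isg15 lay further apart than those of Meox1. With a pseudocount of 0.1 or 5 FPKM in place of 1, 3 of these 5 genes remained in each case.

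Genes that work with or beside the members were taken from 6 lists, and no gene of 5 of these lists was at least 2-fold different in any of the 3 comparisons. Those 5 lists hold 4 to 20 measured genes each, and 1.78%, 1.54% and 0.928% of all measured genes were so in the knockout, siRNA and control comparisons, so a count of 0 is near the background. The counts of higher and lower genes below stand against 43.7% higher and 55.6% lower over all measured genes in the knockout, and 54.3% higher and 45% lower with siDyrk2. Among bHLH partners and inhibitors, the E proteins with which Twist and Tcf21 proteins pair and the Id proteins that block them, 8 of 9 were measured. The E protein genes Tcf3, Tcf4 and Tcf12 were at log2 ratios of -0.03, 0.19 and -0.06 in the knockout and -0.27, -0.23 and -0.23 with siDyrk2. The largest ratios were those of Id2 between the controls (-0.84) and Id4 with siDyrk2 (15.52 against 8.75 FPKM, 0.76). In the knockout 5 of the 8 were higher, with a median of 0.18, and with siDyrk2 3 of 8, with a median of -0.23.

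Somite and sclerotome factors, the tissue in which Meox1 acts, were mostly low, with 4 of 12 measured and the other 8 below 1 FPKM in every library. All 4 were lower in both comparisons, as were 28.9% of all measured genes, with medians of -0.50 in the knockout and -0.30 with siDyrk2. The counting interval lay below 1 for 3 of the 4 in the knockout and for 2 of the 4 with siDyrk2, where it did for 26.2% and 23.1% of measured genes. Foxc1 was at 6.61 FPKM in wild type, 3.93 in the knockout, 6.57 with siNeg and 4.55 with siDyrk2. Foxc2, its paralog, was at 3.53, 2.10, 3.45 and 2.85 FPKM, and its interval with siDyrk2 (0.667 to 1.02) includes 1. Tbx18, a T-box gene of somites and epicardium, was at 5.92, 4.05, 5.61 and 4.06 FPKM, and Pax1 at 1.61, 1.48, 1.57 and 1.31 FPKM. The counting interval between the controls included 1 for all 4. Of the genes below 1 FPKM, Pax9 had 20 to 44 fragments per library, Nkx3-2 12 to 24 and Uncx 4 to 24, and Tcf15 was at 0 in every library.

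Limb and craniofacial mesenchyme factors had 20 of 29 genes measured, and most were higher in the knockout and lower with siDyrk2. In the knockout 14 were higher and 6 lower (median 0.12). The counting interval excluded 1 for 9 and 4 of them, where it did for 19.1% and 26.2% of measured genes. With siDyrk2 4 were higher and 16 lower (median -0.21), with such an interval for 2 and 9, against 28.3% and 23.1% of measured genes. The medians of all measured genes were -0.02 and 0.02. Between the controls, 13 genes of the list were higher with siNeg than in wild type and 7 lower (median 0.02). Of all measured genes 48.3% were higher and 51% lower there. The interval excluded 1 for 7 and 1 of the list, against 22.9% and 23.6% of measured genes. The siRNA comparison shares this siNeg library. Foxd1, a forkhead gene known to respond to Hedgehog signalling, had the largest ratio, with 2.22 FPKM in wild type, 0.88 in the knockout, 2.05 with siNeg and 1.27 with siDyrk2. Meis2, a homeobox gene of the proximal limb, came next, at 6.55, 7.21, 8.63 and 5.15 FPKM. The lineage regulators of cartilage, bone, tendon, muscle and fat had 6 of 11 measured, with medians of 0.33 in the knockout and -0.03 with siDyrk2, and the largest ratios were those of Mkx (0.44 in the knockout) and Cebpa (-0.44 between the controls).

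The list of EMT (epithelial-mesenchymal transition) factors and adhesion genes, which holds the Twist proteins' usual companions, had 8 of 9 measured. In the knockout 6 were lower and 2 higher (median -0.27), and with siDyrk2 5 were lower and 3 higher (median -0.15). Snai1 was at 26.53 FPKM in wild type, 16.84 in the knockout, 37.67 with siNeg and 26.81 with siDyrk2. With siNeg it was 1.42-fold above wild type (1.31 to 1.54), and its level with siDyrk2 was near that of wild type. Vim, which encodes vimentin, had the next largest ratio of the list outside Snai1, at 0.59 with siDyrk2.

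Of 6 genes reported elsewhere as targets of members, 4 were measured. Tnc, the tenascin C gene, a reported Prrx1 target, was at 93.81 FPKM in wild type, 67.14 in the knockout, 71.41 with siNeg and 153.89 with siDyrk2. Tnc was 2.16-fold higher with siDyrk2 than with siNeg (2.11 to 2.20) and at 0.716 of wild type in the knockout (0.699 to 0.733). The siNeg control was itself at 0.761 of wild type (0.743 to 0.780). Prrx1 differed by at most 1.20-fold. Cdkn1a and Cdkn2a, cell cycle inhibitor genes that MEOX proteins can activate, had log2 ratios of 0.06 and -0.21 in the knockout and 0.08 and 0.17 with siDyrk2. Nkx3-2, a sclerotome gene downstream of Meox1, was below 1 FPKM in every library, at 0.36 in wild type, 0.64 in the knockout, 0.35 with siNeg and 0.57 with siDyrk2. The Hedgehog readout Hhip and the GLI transcription factor gene Gli2 were at least 2-fold lower in both comparisons. Their log2 ratios were -2.08 and -1.15 in the knockout and -1.54 and -1.12 with siDyrk2.

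**Figure D5:**
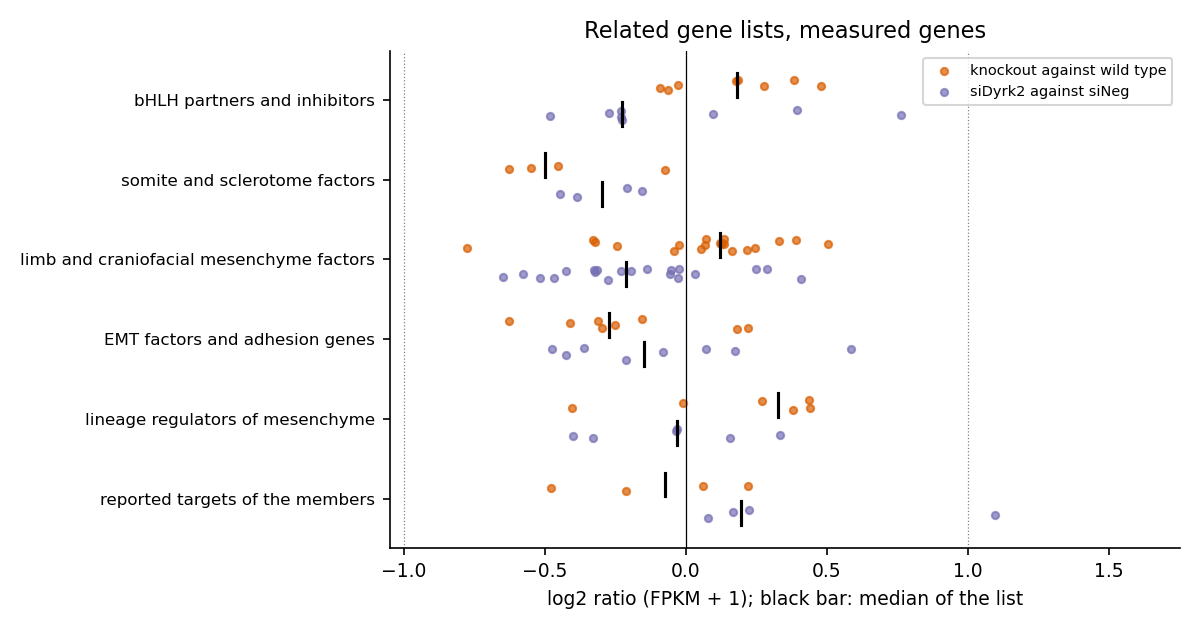
Log2 ratio of FPKM + 1 (horizontal axis) of each measured gene of 6 related lists (points) in the knockout and siRNA comparisons, with a black bar at the median of the list and dotted lines at 2-fold. The 4 measured somite and sclerotome genes lie below 0 in both, and Tnc, a reported target, is the single gene past 2-fold, at 1.10 with siDyrk2.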

How the data were processed

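RNA was polyA-selected and made into stranded libraries, per the labels' protocols. HISAT2 2.0.1, cutadapt 1.9.1 and the build GRCm38 are listed in the submitters' processing notes. How fragments were counted, and on which annotation, is not stated there. The authors deposited FPKM values with 2 decimals and an exonic length per gene, per the file headers. FPKM times kilobases summed to 1e+06 per library within rounding, so depth was sought as the smallest that put genes of at most 200 bases on whole fragments. Between 99.2% and 100% of 341 to 402 such genes came out whole within rounding. This gave 23.93 (wild type), 21.87 (knockout), 19.98 (siNeg) and 21.47 (siDyrk2) in units of 1e+06 fragments. No count model was run.

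Symbols came from GENCODE M21, which matched 55480 of 55573 identifiers. Ratios were computed with a pseudocount of 1 FPKM among genes that reached 1 FPKM in any library, in Python 3.11.15 with scipy 1.17.1. The steps were tested on simulated data. Named genes were all members, list genes at least 2-fold different or otherwise the 2 with the largest ratio, and the 5 nearest Meox1. Named outside that rule, after their values were seen, were Tcf3, Tcf4, Tcf12, Tbx18, Pax1, Pax9, Uncx, Tcf15, Nkx3-2, Cdkn1a, Cdkn2a, Ddx3y, Xist, Tubb3, Stmn2, genes next to members and markers at 0. Members and lists were chosen with earlier results of these data known. Alternatives were pseudocount, filter, scaling, gene type and control library. The coding sequence comparison of the Meox pair is not reported here.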

Additional observations from a re-analysis of the deposited data

Results flagged for a closer look

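For 4 members the knockout and siRNA comparisons went in opposite directions. With 1 library per group the difference was not tested. Meox2 had log2 ratios of 0.76 and -0.23, a difference of 0.99, and its siRNA ratio turned positive (0.15) when wild type was the control in place of siNeg. Osr2 had 0.87 and -0.07, a difference of 0.94, and Twist1 had 0.55 and -0.15, a difference of 0.70. Prrx2 had 0.24 and -0.12, a difference of 0.36. The siRNA counting interval includes 1 for Osr2 and Prrx2 and excludes it for Meox2 and Twist1. Opposite signs were found for 42.2% of the 12817 measured genes.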

How the results depend on the processing

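No paired analysis was possible because each group holds 1 library, and for the same reason no library could be left out. With a pseudocount of 5 FPKM the log2 ratio of Meox1 was 0.64 in the knockout and 1.28 with siDyrk2. With siNeg as the control for the knockout 1 member (Osr2) was at least 2-fold different in place of 0, and 428 of all genes. The count of all genes at least 2-fold different depended on the pseudocount and on the genes kept. It was 228 in the knockout, 198 with siDyrk2 and 119 between the controls, or 1.78%, 1.54% and 0.928% of 12817 genes. In that order it was 607, 506 and 340 with a pseudocount of 0.1 FPKM, and 22, 33 and 11 with 5 FPKM. With a filter of 5 FPKM it was 103, 85 and 32, or 1.28%, 1.05% and 0.397% of 8068 genes. Among 11133 protein-coding genes it was 112, 86 and 17, or 1.01%, 0.772% and 0.153%. The members' median moved by less than the counting error of a typical member under every alternative run. Single members held less well. With the other control library, 8 of 14 ratios of members other than Meox1 moved by more than their own counting error. The log2 ratio of Meox2 in the knockout went from 0.76 to 0.38, and that of Twist2 with siDyrk2 from -0.52 to -0.69. Trimmed-mean and median-of-ratios scaling changed the sign of the Prrx1 ratio with siDyrk2 and of the Twist1 ratio between the controls, both near 0, and of no other member. Depth limits Tcf21, with at most 6 fragments. The lowest count of the other members was 243 fragments, yet the siRNA counting interval still included 1 for Osr1, Osr2, Prrx1 and Prrx2. Beyond counting error, all members are limited because no spread between cultures can be estimated.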

Other observations

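The nearest protein-coding genes on each side of the members were looked at after the members' values had been seen. Of the 18, 11 were measured. Ptges, the prostaglandin E synthase gene, 8220 bases from Prrx2, was at 4.74 FPKM in wild type, 6.99 in the knockout, 5.03 with siNeg and 5.14 with siDyrk2. Its log2 ratio in the knockout, 0.48, was above that of Prrx2 (0.24), while Asb6 on the other side was at 0.01. Around Meox1 they were Etv4, 92139 bases away, at 2.38 FPKM in wild type, 1.55 in the knockout, 4.50 with siNeg and 3.33 with siDyrk2, and Sost, listed at 0 in all 4 libraries. Neither was high in both libraries with low Dyrk2, as Meox1 was. Around Twist2 they were Asb1 and Hdac4, with log2 ratios of 0.02 and -0.11 in the knockout and -0.22 and -0.04 with siDyrk2. Around Osr2, which was high in the knockout, Stk3 and Vps13b had ratios of 0.16 and 0.20 there. Of the others, Ttc32 by Osr1 had a knockout ratio of -0.03 and an siRNA ratio of -0.18, and Gorab by Prrx1 0.02 and -0.05. By Tcf21, Tbpl1 had -0.20 and -0.08 and Eya4 -0.40 and -0.45. Those around Meox2 and Twist1 were below 1 FPKM in every library.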
